A study of Arabidopsis thaliana with 9 samples.

Results

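Sperm cells sorted from Arabidopsis thaliana pollen tubes that had grown through a pistil were compared with sperm cells sorted from tubes grown on medium alone. The members are the 3 semi in vivo and the 3 in vitro sperm libraries, 6 of the 9 libraries of the series, chosen by their labels and compared over all genes. Of 32833 genes in the count table, 14131 had enough counts to be tested. The other 3 libraries, vegetative nuclei of in vitro tubes, stayed out of every test and are given only as levels beside sperm genes. In both sperm groups the pollen came from a line that carries MGH3p::MGH3-GFP, a green sperm histone, and ACT11p::H2B-mRFP, a red histone driven by an actin promoter, and the genotype is labelled WT. In vitro pollen was shaken from flowers into germination medium, spun down, spread on a dish and grown in the dark for 6 h at 22.5 °C. For the semi in vivo group, Col-0 flowers were emasculated 16 h before use and pollinated for 2 h, the pistil was cut where the style meets the ovary, and tubes grew out of the cut end during another 4 h on liquid medium, again 6 h in all. Plants had 8 weeks of short days with 8 h of light and then long days with 16 h of light. Contact with the pistil therefore cannot be told apart from the other differences between the assays, such as the handling of the pollen, and the dark, which the labels state for the in vitro tubes. Nothing in the labels says that replicates came from separate plants or assays, so the p-values reflect the spread among these samples, part or all of which may be technical.

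A pollen grain holds a pair of sperm cells inside a larger vegetative cell. The vegetative cell forms the tube, grows through stigma, style and ovary and carries the sperm cells as passive cargo to the ovule, where they fuse with the egg cell and the central cell. Tubes that have passed through a pistil are known to be more able to find ovules than tubes grown on medium alone. Sperm cells have condensed chromatin, with a male-gamete histone H3 in place of the usual forms, and yet hold a large set of their own messenger RNAs.

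Total counts were 14470065 to 40525238 in the in vitro and 24005795 to 41118337 in the semi in vivo sperm libraries. Values of single genes in sperm are CPM (a gene's counts scaled to a common library total) with TMM scaling, edgeR's correction for a few abundant RNAs. Sums over marker lists and all values of the nuclei are CPM without it. The label of sperm held in both groups. The 17 sperm markers together took 213200 to 230200 CPM in vitro and 202700 to 232600 CPM semi in vivo, against 2549 to 5650 CPM in the nuclei. Most of this sum was DAF1 alone, with 183900 to 207000 CPM in vitro and 171200 to 202300 CPM semi in vivo. GEX2, another of the 17, had at most 0.417 CPM in any sperm library and was not tested. The 24 vegetative cell markers together had 254.8 to 329.9 CPM in vitro and 196.8 to 270.2 CPM semi in vivo, against 45370 to 60180 CPM in the nuclei. Most of this sum in sperm was AT4G33970 alone, with 162.8 to 194.2 CPM in vitro and 121.1 to 160.2 CPM semi in vivo. These groups of sperm libraries overlapped on both sums, and MGH3 itself had 1294 ± 239 CPM in vitro and 1019 ± 121 CPM semi in vivo (SD, n = 3; log2 fold change -0.34, 95% interval -0.72 to 0.04, edgeR adjusted p = 0.695), with counts that may include the MGH3-GFP fusion. ACT11, whose promoter drives the red marker, had 36.9 ± 8.88 CPM in vitro and 40.7 ± 16.5 CPM semi in vivo (SD, n = 3). The 13 pistil markers together had 0.818 to 21.6 CPM in vitro and 0.0913 to 4.499 CPM semi in vivo. The values 21.6 and 0.0913 came from in vitro library 2 and semi in vivo library 3. Without this pair the sums were 7.19 and 0.818 CPM in vitro and 2.83 and 4.499 CPM semi in vivo, which overlapped. Of the 3 tested, STK had 1.37 ± 1.305 CPM in vitro and 0.391 ± 0.322 CPM semi in vivo. CRC had 0.696 ± 0.881 CPM in vitro and 0.907 ± 1.28 CPM semi in vivo, and INO 0.598 ± 0.873 CPM in vitro and 0.491 ± 0.477 CPM semi in vivo (SD, n = 3). Of 12 green tissue markers, LHCB2.1 was at 0 in every sperm library, while RBCS3B, a small subunit of Rubisco, had 344 ± 63.2 CPM in vitro and 572 ± 45.9 CPM semi in vivo (SD, n = 3; edgeR adjusted p = 0.0895), RBCS1B 0.508 ± 0.334 CPM in vitro and 0.73 ± 0.547 CPM semi in vivo and RBCS2B 3.31 ± 0.753 CPM in vitro and 2.94 ± 1.201 CPM semi in vivo. The remaining green tissue markers were not tested and had at most 0.962 CPM in any sperm library. Of these, RBCS1A and CAB2 had counts in both groups. RCA, CAB1, CAB3, PSBO1, PSAD-1 and PSAF were at 0 in all semi in vivo libraries, and each had counts in in vitro library 2. Libraries stood apart in each group. After thinning to 14470065 counts, in vitro library 2 had 25250 genes with a count and semi in vivo library 3 had 11013, against 16307 to 18742 in the other 4. Results that rest on this pair are given with and without it.

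In semi in vivo sperm, 76 of the 14131 genes tested rose (percent called 0.538) and 13 fell (percent called 0.092), 89 in all (percent called 0.63; edgeR quasi-likelihood F test, Benjamini-Hochberg adjusted p below 0.05). At an unadjusted p below 0.05 there were 649 higher and 489 lower genes. Counts of calls in gene lists and families below are to be read beside the shares called over all genes. At these shares a short list holds few calls or none. Of the 89, 80 encode proteins, 4 are small nucleolar RNAs, 4 long noncoding RNAs and 1 another noncoding RNA. The change was at least 2-fold for 83 of them and at least 4-fold for 21. In none of them did the values of the groups overlap, and all had a mean of 5 CPM or more where they were higher. Genes chosen by a small p tend to have separate groups, so this separation, here and below, is no added support. Over all genes tested, 7.08% were separate with semi in vivo higher and 8.45% with in vitro higher. In bulk libraries such as these, fewer cells of a type and less RNA per cell cannot be told apart. DESeq2 called all 89 among 521 genes (percent called 3.4), and limma-voom called 73 of them.

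**Figure D1:**
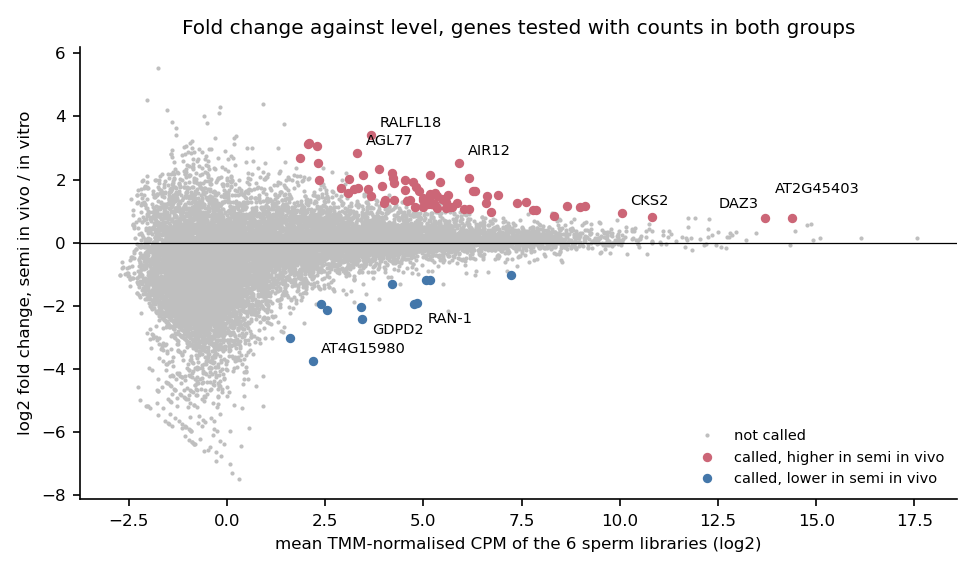
Each point is a tested gene with counts in both sperm groups, with its mean TMM-normalised CPM over the 6 sperm libraries on the x axis (log2) and its log2 fold change, semi in vivo over in vitro, on the y axis. Coloured points are the called genes, 76 higher and 12 of the 13 lower; 135 genes at 0 in all libraries of a group, BPS3 among them, are not drawn because their fitted fold change has no fixed size.

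Many of these calls were lost when a library was left out. Such fits also have fewer libraries and another number of genes tested, and the cause of the losses was not tested. With any single library left out, 36 of the 89 stayed past the threshold in every fit, 31 higher and 5 lower, and 53 were lost in at least 1 fit. Leaving out in vitro library 1, the shallowest, lost 43 of the 89 calls, against 10 to 21 for each of the others. With in vitro library 2 and semi in vivo library 3 both left out, 2 libraries a group remained and 0 genes were called by edgeR (1019 at an unadjusted p below 0.05). All 89 kept their sign there, the smallest with a log2 fold change of 0.68 in size. Because the groups of the 89 do not overlap, a subset of the same libraries keeps the sign apart from shifts in scaling. The kept sign is therefore no added support. Of the 36, limma-voom did not call AT1G07997, AT4G15980, BPS3 and the snoRNA genes AT2G08765 and AT2G35744 (adjusted p = 0.054 to 0.16). S6K2 was not called by edgeR with RLE or upper-quartile scaling (adjusted p = 0.0546 and 0.0696), nor AT4G34380 with upper-quartile scaling (adjusted p = 0.0509). Below, a call that a single left-out library ends is given with that library and the adjusted p without it.

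**Figure D2:**
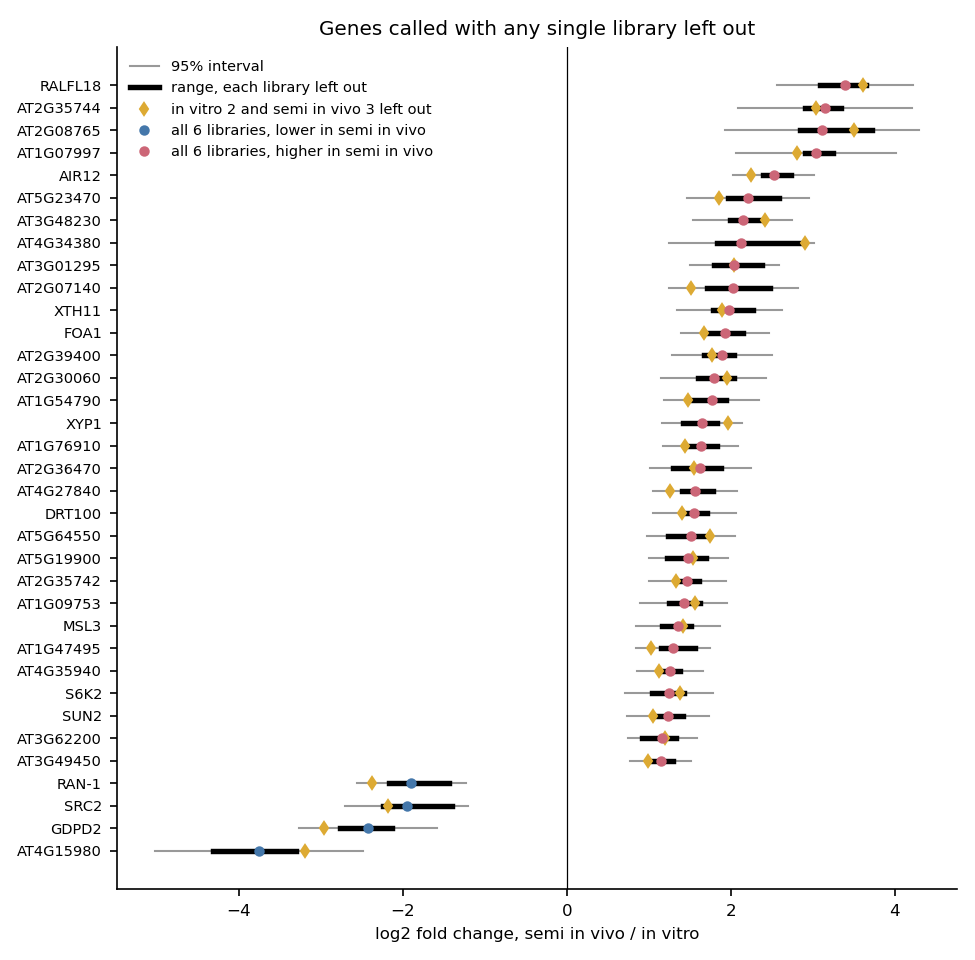
Log2 fold changes, semi in vivo over in vitro sperm, of the genes called in all 6 fits that each leave out 1 library, with the 95% interval, the range over those fits and the value without in vitro library 2 and semi in vivo library 3. BPS3 is left out because it has no counts in semi in vivo sperm. All 31 higher genes lie above 0 and the 4 lower ones shown lie below 0 on every measure. This follows largely from their being called with separate groups.

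RALFL18 encodes a peptide of the rapid alkalinization factor family, small secreted signals that bind receptor kinases at the cell surface. It had 0.867, 2.86 and 2.71 CPM in vitro and 21.3, 24.6 and 23.96 CPM semi in vivo. Each semi in vivo library was above all in vitro libraries, and the gene rose 10.5-fold (log2 fold change 3.4, 95% interval 2.56 to 4.23, edgeR adjusted p = 0.000727). In the nuclei it had 0, 0.0284 and 0 CPM. Of 12 genes tested under a RALFL name, RALFL18 rose and 11 did not pass, and whether their change differs from that of RALFL18 was not tested. RALFL33 had 2.71 ± 0.667 CPM in vitro and 4.76 ± 0.958 CPM semi in vivo (SD, n = 3; edgeR adjusted p = 0.837). The nuclei held RALFL4 and RALFL19 at 1657 to 2829 and 2812 to 5676 CPM, while in sperm RALFL19 had 1.17 ± 1.19 CPM in vitro and 0.828 ± 0.758 CPM semi in vivo (SD, n = 3).

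AIR12 encodes a cytochrome b protein attached to the outer face of the plasma membrane and is induced by auxin. Its values were 17.3, 14.4 and 21.7 CPM in vitro and 102, 84.95 and 120.4 CPM semi in vivo. The lowest semi in vivo library was well above the highest in vitro one (log2 fold change 2.52, SE 0.23, edgeR adjusted p = 9.35e-05). XYP1, an arabinogalactan protein with a lipid-transfer domain that is known from vessel differentiation, had 33.3, 43.8 and 33.5 CPM in vitro and 113, 149 and 85.5 CPM semi in vivo. It rose in all 3 libraries without overlap (log2 fold change 1.65, SE 0.23, edgeR adjusted p = 0.00366). DRT100, a leucine-rich repeat protein first found as a gene that restores DNA damage tolerance to bacteria, had 20, 14.2 and 20.2 CPM in vitro and 43.96, 62.8 and 53.1 CPM semi in vivo and rose 2.94-fold (edgeR adjusted p = 0.00545).

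Receptor-type proteins known from immunity were among the genes that rose. SD1-29, a lectin-type receptor kinase that senses bacterial lipid products, had 24.5 ± 6.65 CPM in vitro and 63.7 ± 24.5 CPM semi in vivo (SD, n = 3; log2 fold change 1.38, SE 0.28, edgeR adjusted p = 0.0323). RLP42, a receptor-like protein that responds to fungal polygalacturonases, had 10.7 ± 0.404 CPM in vitro and 27.5 ± 3.59 CPM semi in vivo (SD, n = 3; log2 fold change 1.37, SE 0.25, edgeR adjusted p = 0.0178). MLO6, a multi-pass membrane protein of the family named after mildew resistance in barley, had 4.66 ± 1.24 CPM in vitro and 15.5 ± 6.03 CPM semi in vivo (SD, n = 3; log2 fold change 1.73, SE 0.38, edgeR adjusted p = 0.0457). These 3 calls were each lost with a single library left out. SD1-29 was not called without in vitro library 1 or semi in vivo library 2 (edgeR adjusted p = 0.0649 to 0.0978). RLP42 was not called without in vitro library 1 (edgeR adjusted p = 0.0536). MLO6 was not called without in vitro library 1 or 2 or semi in vivo library 2 (edgeR adjusted p = 0.0582 to 0.147). Of 10 MLO genes tested, MLO6 was the only one called, and MLO1 had 19.3 ± 8.35 CPM in vitro and 15.5 ± 2.202 CPM semi in vivo. The list of receptor kinases had 152 members tested, of which 0 were called by edgeR (1 higher and 9 lower at an unadjusted p below 0.05). Over all genes the percent called was 0.63. SD1-29, described as S-domain-1 29, was not matched to that list.

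Enzymes of the wall moved in both directions. XTH11 belongs to the enzymes that cut and rejoin xyloglucan chains, and had 6.07, 9.66 and 12.1 CPM in vitro and 42.5, 25.8 and 42.6 CPM semi in vivo. It rose without overlap (log2 fold change 1.98, SE 0.30, edgeR adjusted p = 0.00545), and the other 11 XTH genes tested were not called. AT1G80140, a pectin lyase-like protein, rose from 2.6, 8.31 and 3.38 to 17.9, 43.7 and 11.5 CPM (log2 fold change 2.33, SE 0.49, edgeR adjusted p = 0.0441). AT1G80140 was not called without in vitro library 1 or 3 or semi in vivo library 2 (edgeR adjusted p = 0.0927 to 0.344). AT4G15980, of the invertase and pectin methylesterase inhibitor superfamily, had 7, 9.77 and 8.66 CPM in vitro and 1.1, 0.63 and 0.171 CPM semi in vivo. It fell 13.5-fold, with every semi in vivo library below every in vitro one (log2 fold change -3.75, SE 0.60, edgeR adjusted p = 0.00683). Of 282 tested genes in the list of cell wall enzymes and proteins, 3 rose and 1 fell (percent called 0.538 and 0.092 over all genes), with a median log2 fold change of -0.57 against -0.17 over all genes. The third member that rose, AT3G62200, entered the list through the description of a putative endonuclease or glycosyl hydrolase, so a role in the wall is not given by it. Its values were 228, 230.4 and 284 CPM in vitro and 455, 718 and 492 CPM semi in vivo. AT3G62200 rose 2.25-fold (log2 fold change 1.17, SE 0.20, edgeR adjusted p = 0.0121). Its groups did not overlap.

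Other secreted or lumenal enzymes rose as well. PRXCA, a class III peroxidase of the wall, had 22 ± 5.21 CPM in vitro and 51.7 ± 6.86 CPM semi in vivo (SD, n = 3; log2 fold change 1.23, SE 0.24, edgeR adjusted p = 0.0226). PRXCA was not called without in vitro library 1 (edgeR adjusted p = 0.0973). ALPHA-VPE, a vacuolar processing protease, had 19.9 ± 2.61 CPM in vitro and 43.5 ± 10.3 CPM semi in vivo (SD, n = 3; log2 fold change 1.13, SE 0.24, edgeR adjusted p = 0.0441). ALPHA-VPE was not called without in vitro library 1 or 3 or semi in vivo library 2 or 3 (edgeR adjusted p = 0.0516 to 0.161). AT2G28220, an aspartyl protease, had 70.7 ± 13.4 CPM in vitro and 139 ± 13.5 CPM semi in vivo (SD, n = 3; log2 fold change 0.97, SE 0.20, edgeR adjusted p = 0.0334). AT2G28220 was not called without in vitro library 1 or semi in vivo library 3 (edgeR adjusted p = 0.109 to 0.223). These were among the smaller increases.

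AT1G54790, a GDSL-type lipase or acylhydrolase, lies over a long noncoding RNA gene, AT1G07997, in the annotation. The lipase gene had 15, 8.42 and 14.6 CPM in vitro and 34.7, 48.3 and 46.5 CPM semi in vivo. AT1G54790 rose 3.41-fold (log2 fold change 1.77, SE 0.27, edgeR adjusted p = 0.00545). The noncoding gene had 1.13, 0.904 and 1.13 CPM in vitro and 6.601, 9.23 and 10.3 CPM semi in vivo. AT1G07997 rose 8.26-fold (log2 fold change 3.05, SE 0.46, edgeR adjusted p = 0.00545). Both groups were separate for both genes, but the libraries do not keep the strand, so reads of the pair cannot be told apart and the pair may be a single signal. AT2G39400, an alpha/beta-hydrolase, had 6.13, 9.28 and 8.72 CPM in vitro and 28.6, 22.7 and 38.9 CPM semi in vivo, again without overlap (log2 fold change 1.9, SE 0.29, edgeR adjusted p = 0.00545). AT3G48230, of the DUF239 family, had 9.93, 13.6 and 16.2 CPM in vitro and 69.7, 70.6 and 36.3 CPM semi in vivo, with semi in vivo library 3 the lowest of its group and still above the in vitro values (log2 fold change 2.15, SE 0.29, edgeR adjusted p = 0.00199).

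**Figure D3:**
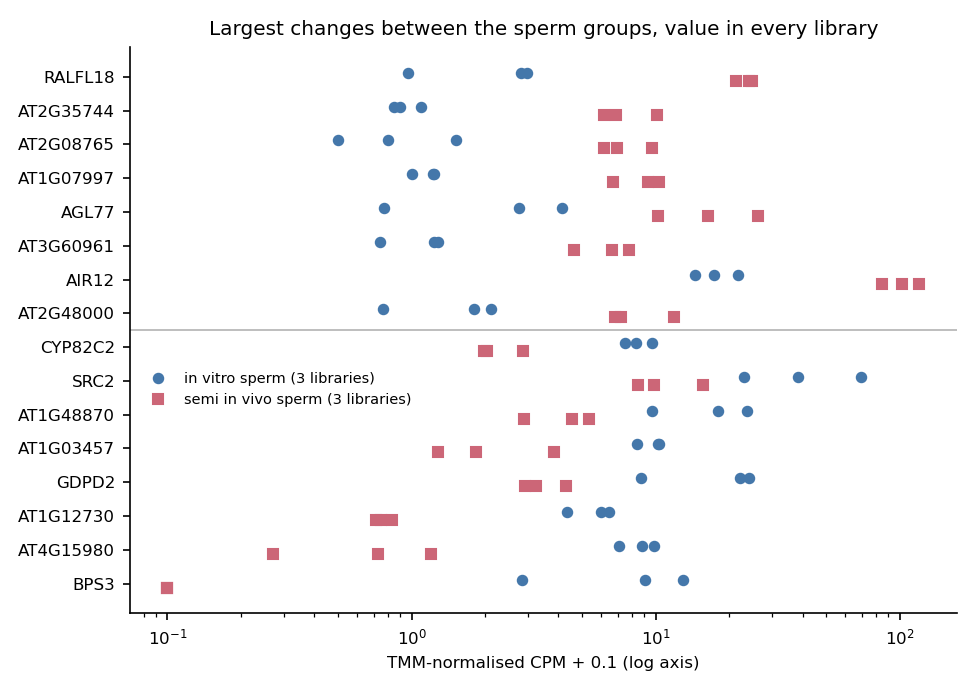
TMM-normalised CPM plus 0.1 (log axis) in each of the 6 sperm libraries for the 8 called genes with the largest log2 fold change in each direction. Circles are in vitro and squares semi in vivo libraries; in every gene shown the 2 groups are separate, and BPS3 is at 0 in all semi in vivo libraries.

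A second set of genes that rose encodes proteins of the nucleus. AGL77, a MADS-box transcription factor gene, had 2.67, 4.05 and 0.67 CPM in vitro and 16.2, 26.1 and 10.1 CPM semi in vivo. It was higher in every semi in vivo library, with semi in vivo library 2 the highest and library 3 the lowest of them (log2 fold change 2.83, SE 0.53, edgeR adjusted p = 0.02). AGL77 was not called without in vitro library 1 (edgeR adjusted p = 0.223). It was the only call among 47 MADS-box genes tested (percent called 2.13, against 0.63 over all genes), whose median log2 fold change was -0.78. LEC1, a subunit of nuclear factor Y known as a master regulator of embryo development, had 1.73, 4.43 and 3.92 CPM in vitro and 12.4, 17.8 and 11.5 CPM semi in vivo. LEC1 rose 4.08-fold (log2 fold change 2.03, SE 0.40, edgeR adjusted p = 0.0253). LEC1 was not called without in vitro library 1 or semi in vivo library 2 (edgeR adjusted p = 0.0504 to 0.0512), and 5 other embryo and zygote regulators tested were not called. Among them, BBM, an AP2 factor of early embryos, had 43.1 ± 4.62 CPM in vitro and 49.9 ± 7.99 CPM semi in vivo, and WRKY2, which acts on zygote polarity, had 127 ± 19.95 CPM in vitro and 148 ± 24.3 CPM semi in vivo (SD, n = 3).

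CRF5, a cytokinin response factor of the AP2/ERF family, had 31.7 ± 7.67 CPM in vitro and 69.9 ± 5.15 CPM semi in vivo (SD, n = 3; log2 fold change 1.14, SE 0.23, edgeR adjusted p = 0.0261). CRF5 was not called without in vitro library 1 (edgeR adjusted p = 0.0687). Its relatives CRF6 and CRF4 had log2 fold changes of 1.4 and 0.69 without passing (edgeR adjusted p = 0.11 and 0.245). WRKY55, of the WRKY DNA-binding factors, had 25.9 ± 3.14 CPM in vitro and 55.7 ± 5.06 CPM semi in vivo (SD, n = 3; log2 fold change 1.1, SE 0.21, edgeR adjusted p = 0.0237). WRKY55 was not called without in vitro library 1 (edgeR adjusted p = 0.116). AT4G37110, with a zinc-finger domain of the monoamine-oxidase A repressor type, had 46.1 ± 1.91 CPM in vitro and 96.8 ± 7.1 CPM semi in vivo (SD, n = 3; log2 fold change 1.07, SE 0.19, edgeR adjusted p = 0.0167). AT4G37110 was not called without in vitro library 1 (edgeR adjusted p = 0.0569). Among 413 tested genes in the list of transcription factors, WRKY55 and DAZ3 were called, both higher (percent called 0.484, against 0.63 over all genes). The list's median log2 fold change was -0.44. AGL77, LEC1 and CRF5 were not matched to that list by their descriptions.

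DRM3 and FOA1 are neighbours in the annotation and rose together. DRM3 is a methyltransferase-like protein without catalytic activity that works with DRM2 in RNA-directed DNA methylation. It had 20.2, 23.9 and 22.5 CPM in vitro and 48.1, 61.5 and 45.6 CPM semi in vivo. DRM3 rose 2.33-fold (log2 fold change 1.22, SE 0.22, edgeR adjusted p = 0.0173). DRM3 was not called without in vitro library 1 (edgeR adjusted p = 0.0642). FOA1, an F-box gene tied to abscisic acid signalling, had 22.8, 12.8 and 18.3 CPM in vitro and 54.3, 76.7 and 73.8 CPM semi in vivo and did not overlap between groups (log2 fold change 1.93, SE 0.25, edgeR adjusted p = 0.00199). DRM2, the active enzyme, had 0.474 ± 0.644 CPM in vitro and 1.33 ± 1.95 CPM semi in vivo (SD, n = 3). The gene on the far side of FOA1, ECT6, had 6.96 ± 1.88 CPM in vitro and 12.3 ± 2.84 CPM semi in vivo (SD, n = 3; edgeR adjusted p = 0.469), and EMB2786, on the far side of DRM3, had 0.656 ± 0.589 CPM in vitro and 0.126 ± 0.218 CPM semi in vivo. DRM3 also overlaps another gene in the annotation, whose reads cannot be told apart from its own.

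Proteins of the nuclear envelope, transcription and cell cycle followed. SUN2, an inner nuclear membrane protein that links the nucleus to the cytoskeleton, had 27.5, 18.9 and 23.1 CPM in vitro and 42.8, 62.2 and 58.4 CPM semi in vivo and rose in every fit that left out a library (log2 fold change 1.24, SE 0.24, edgeR adjusted p = 0.0225). SUN1 had 527 ± 102 CPM in vitro and 582 ± 62.9 CPM semi in vivo (SD, n = 3; edgeR adjusted p = 0.999). AT1G71360, listed as SUN-domain protein 4, had 4.38 ± 1.55 CPM in vitro and 14.4 ± 1.79 CPM semi in vivo (SD, n = 3; log2 fold change 1.71, SE 0.35, edgeR adjusted p = 0.0334). AT1G71360 was not called without in vitro library 1 or 2 or semi in vivo library 2 (edgeR adjusted p = 0.0707 to 0.0926). Whether SUN1 differs from SUN2 in its change was not tested. AT2G34210, an Spt5-type transcription elongation factor, had 32.9 ± 3.17 CPM in vitro and 72.7 ± 13.9 CPM semi in vivo (SD, n = 3; log2 fold change 1.15, SE 0.22, edgeR adjusted p = 0.0225). AT2G34210 was not called without in vitro library 1 (edgeR adjusted p = 0.0542). CKS2, a small subunit that docks cyclin-dependent kinases to their targets, had 703, 813 and 672 CPM in vitro and 1587, 1177 and 1411 CPM semi in vivo. It rose 1.91-fold (log2 fold change 0.93, SE 0.17, edgeR adjusted p = 0.018). CKS2 was not called without in vitro library 1 (edgeR adjusted p = 0.0931), while CKS1 had 41.2 ± 8.24 CPM in vitro and 40.7 ± 4.51 CPM semi in vivo (SD, n = 3).

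F-box genes encode the substrate-binding part of SCF ubiquitin ligases and form a very large family in plants. Of 244 tested, 4 rose and 0 fell (percent called 0.538 and 0.092 over all genes). Besides FOA1 these were AT2G07140, AT3G49450 and AT2G21930. AT2G07140 had 11.3, 3.87 and 6.999 CPM in vitro and 18.1, 33.7 and 37.7 CPM semi in vivo. AT2G07140 rose 4.09-fold (log2 fold change 2.03, SE 0.37, edgeR adjusted p = 0.0173). AT3G49450 had 352, 334 and 349 CPM in vitro and 638, 760.0 and 894 CPM semi in vivo. AT3G49450 rose 2.21-fold (log2 fold change 1.15, SE 0.18, edgeR adjusted p = 0.00545). None of the groups overlapped in these genes. AT2G21930 had 229 ± 37.8 CPM in vitro and 409.7 ± 25.8 CPM semi in vivo (SD, n = 3; log2 fold change 0.84, SE 0.18, edgeR adjusted p = 0.0441). AT2G21930 was not called without in vitro library 1 or 2 or semi in vivo library 1 or 3 (edgeR adjusted p = 0.0697 to 0.231). Over the family, 105 of 244 log2 fold changes were above 0, with a median of -0.13 against -0.17 over all genes. Reads shared with close copies would make single members uncertain. AT5G43200, a RING finger protein of another ligase type, rose too (log2 fold change 1.32, SE 0.28, edgeR adjusted p = 0.035). AT5G43200 was not called without in vitro library 2 or semi in vivo library 1 (edgeR adjusted p = 0.0637 to 0.0829).

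Genes of transport, signalling and metabolism were also among those that rose. MSL3, a mechanosensitive channel of plastid membranes, had 20.7, 17.5 and 15.1 CPM in vitro and 39.3, 56.01 and 41.1 CPM semi in vivo and rose (log2 fold change 1.36, SE 0.24, edgeR adjusted p = 0.0167), whereas MSL2 had 128 ± 26.99 CPM in vitro and 151 ± 4.18 CPM semi in vivo (SD, n = 3; edgeR adjusted p = 0.981). NHX6, an endosomal sodium or potassium/proton antiporter, had 17.4 ± 1.81 CPM in vitro and 38.1 ± 3.89 CPM semi in vivo (SD, n = 3; log2 fold change 1.13, SE 0.23, edgeR adjusted p = 0.0323). NHX6 was not called without in vitro library 1 or 2 or semi in vivo library 3 (edgeR adjusted p = 0.0697 to 0.111). NHX5, its closest relative, had 12.1 ± 0.0761 CPM in vitro and 13.8 ± 2.77 CPM semi in vivo (SD, n = 3). S6K2, a kinase downstream of the nutrient sensor TOR, had 40.7, 41.1 and 20.7 CPM in vitro and 72, 87.2 and 83.9 CPM semi in vivo. It rose (log2 fold change 1.25, SE 0.25, edgeR adjusted p = 0.0304), also with any single library left out. In the list of protein kinases, with 462 members tested, S6K2 rose and SNRK2.3 fell (percent called 0.433, against 0.63 over all genes). SD1-29, described above, was not matched to that list. ACR8, with ACT domains that bind amino acids in other proteins, had 6.76 ± 1.08 CPM in vitro and 18.8 ± 3.03 CPM semi in vivo (SD, n = 3; log2 fold change 1.47, SE 0.30, edgeR adjusted p = 0.0289). ACR8 was not called without in vitro library 1 or semi in vivo library 3 (edgeR adjusted p = 0.0813 to 0.0883).

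Enzymes of nitrogen and sulphur metabolism were in this group. ASN1, asparagine synthetase, had 125, 117 and 193 CPM in vitro and 289, 317 and 288 CPM semi in vivo. ASN1 rose 2.06-fold (log2 fold change 1.04, SE 0.21, edgeR adjusted p = 0.0259). ASN1 was not called without in vitro library 1 (edgeR adjusted p = 0.13). ADC1, arginine decarboxylase of polyamine synthesis, had 12.1, 6.24 and 15.1 CPM in vitro and 43.4, 62.7 and 20.1 CPM semi in vivo. Its semi in vivo values spread widely and lay above all in vitro values (log2 fold change 1.92, SE 0.38, edgeR adjusted p = 0.0259). ADC1 was not called without in vitro library 1 or 2 (edgeR adjusted p = 0.0839 to 0.252). ADC2 had 202 ± 46.04 CPM in vitro and 299 ± 21.5 CPM semi in vivo (SD, n = 3; edgeR adjusted p = 0.294). APR1, which reduces activated sulphate, had 20.9 ± 5.67 CPM in vitro and 49.1 ± 11.3 CPM semi in vivo (SD, n = 3; log2 fold change 1.22, SE 0.26, edgeR adjusted p = 0.0357). APR1 was not called without in vitro library 1 or semi in vivo library 2 (edgeR adjusted p = 0.0827 to 0.13).

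The other described genes that rose have domains of many kinds. AT5G23470, a haloacid dehalogenase-like hydrolase, had 9.53, 4.33 and 5.95 CPM in vitro and 17.4, 38.3 and 35.1 CPM semi in vivo. AT5G23470 rose 4.64-fold (log2 fold change 2.21, SE 0.35, edgeR adjusted p = 0.00666). AT2G30060, with a pleckstrin homology domain, had 4.47, 8.997 and 7.13 CPM in vitro and 25.3, 20.2 and 26.5 CPM semi in vivo. AT2G30060 rose 3.47-fold (log2 fold change 1.79, SE 0.30, edgeR adjusted p = 0.0102). AT4G34380, with WD40 repeats, had 3.2, 7.17 and 1.904 CPM in vitro and 19.5, 18.4 and 16.3 CPM semi in vivo. AT4G34380 rose 4.38-fold (log2 fold change 2.13, SE 0.42, edgeR adjusted p = 0.0249). None of these overlapped. AT2G36470, of the DUF868 family, had 13.1, 19.3 and 11.1 CPM in vitro and 34.7, 36.3 and 63.8 CPM semi in vivo. AT2G36470 rose 3.09-fold (log2 fold change 1.63, SE 0.29, edgeR adjusted p = 0.0167). AT4G27840, a SNARE-like protein, had 25.2, 15.9 and 18.9 CPM in vitro and 49.4, 55.8 and 71.4 CPM semi in vivo. AT4G27840 rose 2.96-fold (log2 fold change 1.56, SE 0.24, edgeR adjusted p = 0.00574). AT5G64550, listed as loricrin-related, had 19.5, 28 and 29.5 CPM in vitro and 66.8, 97.99 and 55.1 CPM semi in vivo. AT5G64550 rose 2.85-fold (log2 fold change 1.51, SE 0.25, edgeR adjusted p = 0.00995). The values were again separate between groups in each. AT5G19900, a putative PRLI-interacting factor, had 43.9, 48.6 and 62.4 CPM in vitro and 120.3, 191 and 123 CPM semi in vivo. AT5G19900 rose 2.801-fold (log2 fold change 1.49, SE 0.23, edgeR adjusted p = 0.00545). AT3G60961, with a P-loop nucleoside triphosphate hydrolase fold, had 1.13, 0.646 and 1.18 CPM in vitro and 7.66, 6.53 and 4.54 CPM semi in vivo. AT3G60961 rose 6.35-fold (log2 fold change 2.67, SE 0.56, edgeR adjusted p = 0.0351). AT3G60961 was not called without in vitro library 2 or semi in vivo library 1 or 2 (edgeR adjusted p = 0.0765 to 0.179). AT2G48000, a pentatricopeptide repeat protein, had 0.667, 1.7 and 2.01 CPM in vitro and 6.73, 7.08 and 11.8 CPM semi in vivo. AT2G48000 rose 5.73-fold (log2 fold change 2.52, SE 0.50, edgeR adjusted p = 0.0266). AT2G48000 was not called without semi in vivo library 3 (edgeR adjusted p = 0.114). It was the only call among 140 pentatricopeptide repeat genes tested (percent called 0.714, against 0.63 over all genes).

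The calls for AT4G10480 (an alpha subunit of the nascent polypeptide-associated complex), AT5G28340, AT5G28380 and AT1G31840 (tetratricopeptide repeats), AT4G32060 (a calcium-binding EF hand) and AT4G11540 (a cysteine and histidine-rich C1 domain) were each lost with a library left out. Their log2 fold changes were 2.0, 1.34, 1.29, 1.07, 1.27 and 1.26 in that order. AT4G10480 was not called without in vitro library 1 or 3 or semi in vivo library 1, 2 or 3 (edgeR adjusted p = 0.0539 to 0.122). AT5G28340 was not called without in vitro library 2 or 3 (edgeR adjusted p = 0.0638 to 0.0916). AT5G28380 was not called without in vitro library 2 or 3 or semi in vivo library 3 (edgeR adjusted p = 0.0606 to 0.0857). AT1G31840 was not called without in vitro library 1 (edgeR adjusted p = 0.142). AT4G32060 was not called without in vitro library 1 or 2 or semi in vivo library 3 (edgeR adjusted p = 0.0922 to 0.186). AT4G11540 was not called without in vitro library 1 (edgeR adjusted p = 0.0642). All 6 were higher in every semi in vivo library than in any in vitro library.

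A further 22 of the 76 genes that rose have no description in the annotation used, the 9 noncoding RNA genes among them. Of the protein-coding ones, AT1G76910 had 47.9, 28.8 and 40.3 CPM in vitro and 116, 123 and 123 CPM semi in vivo. AT1G76910 rose 3.105-fold (log2 fold change 1.63, SE 0.22, edgeR adjusted p = 0.00199). AT1G47495 had 99.4, 93.97 and 143 CPM in vitro and 222, 273 and 334 CPM semi in vivo. AT1G47495 rose 2.46-fold (log2 fold change 1.3, SE 0.21, edgeR adjusted p = 0.00859). AT4G35940 had 108, 78.8 and 108 CPM in vitro and 221, 251 and 235 CPM semi in vivo. AT4G35940 rose 2.39-fold (log2 fold change 1.26, SE 0.19, edgeR adjusted p = 0.00545). These 3 kept their call whichever library was left out, and their groups were far apart. AT5G10625, AT5G53670, AT5G55610, AT5G58020, AT3G44760, AT5G13880, AT1G79970, AT1G29418, AT3G60975 and AT2G45403 also rose. Their log2 fold changes ran from 0.78 to 1.75, and each lost its call with at least 1 library left out. AT3G44760 was not called without in vitro library 1, 2 or 3 or semi in vivo library 3 (edgeR adjusted p = 0.0546 to 0.134). AT1G79970 was not called without in vitro library 1 or 3 or semi in vivo library 1 or 3 (edgeR adjusted p = 0.0616 to 0.153). Leaving out in vitro library 1 ended the calls of AT5G53670, AT5G13880 and AT1G29418 (edgeR adjusted p = 0.0531 to 0.107) and leaving out semi in vivo library 3 those of AT5G55610 and AT5G58020 (edgeR adjusted p = 0.122 to 0.149). AT5G10625 was not called without in vitro library 2 (edgeR adjusted p = 0.133). AT3G60975 was not called without in vitro library 1 or semi in vivo library 1 or 3 (edgeR adjusted p = 0.0504 to 0.0829). AT2G45403 was not called without in vitro library 1 or semi in vivo library 1 (edgeR adjusted p = 0.0707 to 0.107).

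Small nucleolar RNAs guide the modification and cutting of ribosomal RNA in the nucleolus, and in plants many lie in clusters that are transcribed together and then cut apart. Of 36 tested, 4 were called, all higher (percent called 0.538 over all genes). The groups did not overlap, with semi in vivo higher, in 22 of the 36, and in 0 with in vitro higher, against 7.08% of all tested genes with semi in vivo higher and 8.45% with in vitro higher. The median log2 fold change was 1.5, and 1.39 with in vitro library 2 and semi in vivo library 3 left out, where 30 of 35 were positive. Before TMM scaling, all 287 snoRNA genes in the table together had 171.7, 134.4 and 138.2 CPM in vitro and 275.8, 249.2 and 254.5 CPM semi in vivo. The list was drawn up after the calls had been seen, so it has no test, and genes of a cluster are not independent of each other.

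The 4 calls lie in a single cluster of 5 tested genes, AT2G35742 to AT2G35744. AT2G35742 had 24.9, 19.9 and 19.5 CPM in vitro and 59.1, 52.7 and 66.2 CPM semi in vivo. AT2G35742 rose 2.78-fold (log2 fold change 1.47, SE 0.22, edgeR adjusted p = 0.00545). AT2G08765 had 0.4, 1.42 and 0.697 CPM in vitro and 6.87, 6.05 and 9.59 CPM semi in vivo. AT2G08765 rose 8.65-fold (log2 fold change 3.11, SE 0.56, edgeR adjusted p = 0.0167). AT2G35744 had 0.8, 0.99 and 0.751 CPM in vitro and 6.03, 6.78 and 10.04 CPM semi in vivo. AT2G35744 rose 8.92-fold (log2 fold change 3.16, SE 0.50, edgeR adjusted p = 0.00666). All semi in vivo libraries were above all in vitro libraries in these 3, which kept their call with any single library left out. AT2G08755 had 9.18 ± 0.242 CPM in vitro and 23.6 ± 3.45 CPM semi in vivo (SD, n = 3; log2 fold change 1.36, SE 0.26, edgeR adjusted p = 0.0226). AT2G08755 was not called without in vitro library 1 or semi in vivo library 3 (edgeR adjusted p = 0.0569 to 0.0809). The remaining member, AT2G08760, had 18.3 ± 6.601 CPM in vitro and 40.6 ± 0.698 CPM semi in vivo (SD, n = 3; edgeR adjusted p = 0.0579). The cluster as a sum had 61.1, 47.2 and 43.3 CPM in vitro and 135.5, 126.0 and 154.5 CPM semi in vivo, a ratio of 2.74. The next protein-coding gene, AT2G35750, had 0.771 ± 0.551 CPM in vitro and 3.19 ± 0.497 CPM semi in vivo (SD, n = 3; edgeR adjusted p = 0.479).

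The 31 snoRNA genes outside this cluster summed to 97.1, 58.8 and 89.1 CPM in vitro and 147.6, 127.1 and 127.5 CPM semi in vivo, again without overlap. Cluster AT3G21805, of 4 genes on chromosome 3, had 4.2, 4.65 and 8.69 CPM in vitro and 22.1, 22.4 and 20.2 CPM semi in vivo. Cluster AT4G39361, of 5 genes on chromosome 4, had 4.93, 4.61 and 5.9 CPM in vitro and 19.1, 14.5 and 19.3 CPM semi in vivo. Cluster AT2G05765, of 3 genes on chromosome 2, had 3.53, 1.96 and 3.27 CPM in vitro and 10.3, 9.58 and 13.5 CPM semi in vivo. In these 3 clusters the sums were 3.42 to 3.802 times higher semi in vivo. Of 11 clusters with at least 2 tested genes, 8 had only positive members. The exceptions were cluster AT1G74453, whose sums overlapped at 36.6 to 71.1 CPM in vitro and 58.8 to 71.1 CPM semi in vivo, and clusters AT5G00755 and AT5G02565, with ratios of 0.802 and 0.761. The kit was Smart-seq2, which primes on poly(A) tails, and mature snoRNAs have none, so which form of the RNA was counted is not given by the table.

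**Figure D4:**
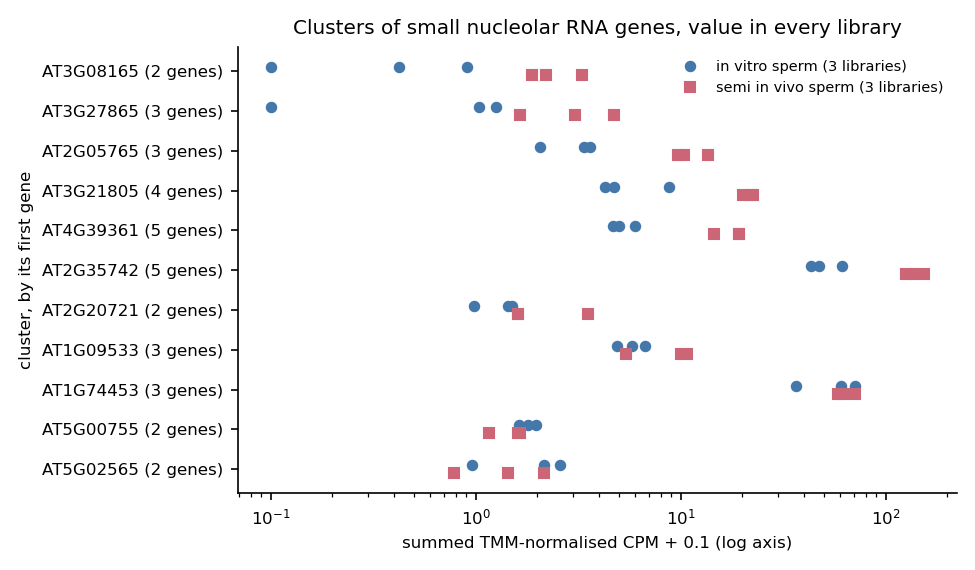
Summed TMM-normalised CPM plus 0.1 (log axis) of the tested genes in each of 11 clusters of snoRNA genes, with neighbours at most 10000 bases apart, in each of the 6 sperm libraries. Circles are in vitro and squares semi in vivo libraries; the groups are separate in 7 clusters, overlap in the others, and sums drawn at 0.1 are 0.

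Among 270 long noncoding RNA genes tested, 4 rose and 0 fell (percent called 0.538 and 0.092 over all genes). Their median log2 fold change was -0.26, against -0.17 over all genes. AT3G01295 had 20.9, 25.2 and 37.8 CPM in vitro and 92.7, 151 and 105 CPM semi in vivo. AT3G01295 rose 4.13-fold (log2 fold change 2.05, SE 0.26, edgeR adjusted p = 0.00167). AT1G09753 had 11.7, 19.6 and 20.6 CPM in vitro and 48.8, 47.8 and 43.8 CPM semi in vivo. AT1G09753 rose 2.69-fold (log2 fold change 1.43, SE 0.25, edgeR adjusted p = 0.0148). Both were separate between groups and kept their call with any single library left out. AT4G08835 rose as well (log2 fold change 1.56, SE 0.34, edgeR adjusted p = 0.0462). AT4G08835 was not called without in vitro library 1, 2 or 3 or semi in vivo library 1 or 3 (edgeR adjusted p = 0.0643 to 0.154). The fourth is AT1G07997, which overlaps the lipase gene AT1G54790. AT4G30975, another noncoding RNA gene, had 11.1 ± 6.697 CPM in vitro and 35.6 ± 4.72 CPM semi in vivo (SD, n = 3; log2 fold change 1.67, SE 0.34, edgeR adjusted p = 0.0323). AT4G30975 was not called without in vitro library 1 (edgeR adjusted p = 0.0542). Of the 89 called genes, 18 overlap another annotated gene, and reads of overlapping genes cannot be told apart in unstranded counts. These are AT1G07997, AT1G54790, DRM3, AT4G08835, AT4G30975, SNRK2.3, CKS2, ASN1, APR1, MLO6, ALPHA-VPE, AT3G62200, AT4G10480, AT4G32060, AT4G35940, AT1G29418, AT5G58020 and AT3G60975.

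The 13 genes that fell include RAN-1 of nuclear transport, the lipid enzyme GDPD2 and SNRK2.3 of abscisic acid signalling. Each was the only gene of its list that fell. RAN-1 encodes a small GTPase that sets the direction of transport through nuclear pores. It had 41.9, 26.8 and 67.8 CPM in vitro and 10.7, 10.5 and 15.4 CPM semi in vivo and fell 3.73-fold (log2 fold change -1.9, SE 0.31, edgeR adjusted p = 0.00859). RAN2, a near-identical copy, had 106 ± 2.64 CPM in vitro and 82.2 ± 9.51 CPM semi in vivo (SD, n = 3; edgeR adjusted p = 0.693), and reads shared between the copies would make both values uncertain. GDPD2, which splits glycerophosphodiesters, had 22.1, 8.65 and 23.97 CPM in vitro and 3.12, 2.82 and 4.199 CPM semi in vivo. In vitro library 2 was the lowest of its group and still above all semi in vivo libraries (log2 fold change -2.43, SE 0.40, edgeR adjusted p = 0.00856). SRC2, a C2-domain protein induced by cold, had 38.1, 22.9 and 69.3 CPM in vitro and 15.5, 8.37 and 9.797 CPM semi in vivo. SRC2 fell 3.88-fold (log2 fold change -1.95, SE 0.36, edgeR adjusted p = 0.0173), with no overlap.

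BPS3, of the BYPASS family, had 12.8, 2.73 and 8.96 CPM in vitro and 0 counts in all 3 semi in vivo libraries. It was at least 202-fold lower semi in vivo, against a floor of 3 counts over the group, which covers counting error only (edgeR adjusted p = 0.000548). In the nuclei it had 102, 56.3 and 19.6 CPM. Its relatives BPS1 and BPS2 had 0.699 ± 0.7 CPM in vitro and 0.988 ± 0.615 CPM semi in vivo and 0.723 ± 0.579 CPM in vitro and 1.68 ± 0.907 CPM semi in vivo (SD, n = 3) and were not called.

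SNRK2.3 is a kinase that carries the abscisic acid signal from its receptors. It had 25.2, 25.03 and 28.5 CPM in vitro and 8.097, 12.02 and 11.9 CPM semi in vivo and fell 2.46-fold (log2 fold change -1.3, SE 0.26, edgeR adjusted p = 0.0309). SNRK2.3 was not called without in vitro library 1 or 3 or semi in vivo library 1 (edgeR adjusted p = 0.0778 to 0.145). SNRK2.2, its closest relative, had 45.7 ± 2.51 CPM in vitro and 50.8 ± 15.5 CPM semi in vivo (SD, n = 3; log2 fold change 0.15, 95% interval -0.35 to 0.66). The other 10 abscisic acid signalling genes tested were not called, among them the phosphatases PP2CA with 1126 ± 28.9 CPM in vitro and 1556 ± 234 CPM semi in vivo (SD, n = 3; edgeR adjusted p = 0.322) and ABI2 with 1.34 ± 2.01 CPM in vitro and 0.161 ± 0.279 CPM semi in vivo (SD, n = 3), and the list's median log2 fold change was 0.02.

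AT2G01920, an ENTH-type clathrin adaptor gene, had 203, 188 and 215 CPM in vitro and 99.1, 87.9 and 114 CPM semi in vivo. AT2G01920 fell 2.01-fold (log2 fold change -1.01, SE 0.19, edgeR adjusted p = 0.0173). AT2G01920 was not called without in vitro library 1 or semi in vivo library 1 (edgeR adjusted p = 0.0539 to 0.0872). AT1G48870, with WD40 repeats, had 18, 9.56 and 23.7 CPM in vitro and 5.24, 2.798 and 4.44 CPM semi in vivo. AT1G48870 fell 4.11-fold (log2 fold change -2.04, SE 0.39, edgeR adjusted p = 0.0225). AT1G48870 was not called without in vitro library 3 (edgeR adjusted p = 0.0862). AT1G12730, a PIG-U subunit of the enzyme that attaches glycosylphosphatidylinositol anchors, had 6.33, 5.85 and 4.24 CPM in vitro and 0.616, 0.731 and 0.649 CPM semi in vivo. AT1G12730 fell 8.17-fold (log2 fold change -3.03, SE 0.61, edgeR adjusted p = 0.0266). AT1G12730 was not called without in vitro library 1, 2 or 3 (edgeR adjusted p = 0.0643 to 0.19). In each of these the semi in vivo values were all below the in vitro ones. AT1G03457, the RNA-binding protein listed as Bruno-like 2, had 8.27, 10.3 and 10.1 CPM in vitro and 3.74, 1.18 and 1.74 CPM semi in vivo. AT1G03457 fell 4.33-fold (log2 fold change -2.12, SE 0.46, edgeR adjusted p = 0.0472). AT1G03457 was not called without in vitro library 1, 2 or 3 or semi in vivo library 2 or 3 (edgeR adjusted p = 0.0542 to 0.11). CYP82C2, a cytochrome P450, had 9.6, 8.18 and 7.37 CPM in vitro and 1.94, 2.77 and 1.88 CPM semi in vivo. CYP82C2 fell 3.801-fold (log2 fold change -1.93, SE 0.42, edgeR adjusted p = 0.0472). CYP82C2 was not called without in vitro library 1, 2 or 3 or semi in vivo library 1 or 3 (edgeR adjusted p = 0.0954 to 0.213). ABCI19, an ATP-binding cassette protein, had 46.6 ± 8.17 CPM in vitro and 20.5 ± 1.57 CPM semi in vivo (SD, n = 3; log2 fold change -1.19, SE 0.23, edgeR adjusted p = 0.0229). ABCI19 was not called without in vitro library 3 or semi in vivo library 1 or 3 (edgeR adjusted p = 0.0568 to 0.0586). AT2G32360, a ubiquitin-like protein, had 49.7 ± 9.42 CPM in vitro and 22.1 ± 1.24 CPM semi in vivo (SD, n = 3; log2 fold change -1.17, SE 0.23, edgeR adjusted p = 0.0229). AT2G32360 was not called without in vitro library 1 or 3 or semi in vivo library 3 (edgeR adjusted p = 0.0629 to 0.0926). The last 4 fell at most 4.33-fold.

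Several genes that fell had higher values in vegetative nuclei than in sperm, by margins that differed between genes. For AT2G01920, RAN-1, SRC2, AT1G03457, GDPD2 and BPS3, every nucleus library was above every sperm library, 6 of the 13 that fell, against 2137 of 14131 genes tested (15.12%) and 5 of the 76 that rose. SRC2 had 1042, 889 and 953 CPM in the nuclei, GDPD2 had 142, 165 and 130.4 CPM and RAN-1 had 522, 383 and 329.9 CPM. The margin was smaller for AT2G01920, with 271, 361 and 417 CPM in the nuclei. The 5 that rose were AT4G34380, ADC1, AT4G27840, AT4G32060 and APR1, with APR1 at 321, 327 and 376 CPM in the nuclei. The nucleus values are not TMM-scaled and were not tested against the sperm libraries. The sum of the 24 vegetative cell markers, without TMM scaling, lay at 254.8, 277.4 and 329.9 CPM in vitro and 270.2, 237.9 and 196.8 CPM semi in vivo, with none of the 24 at 0 in all sperm libraries and 0 of 20 tested called by edgeR (0 at an unadjusted p below 0.05). Of these 20, 4 had a positive log2 fold change, and the median was -0.56 against -0.17 over all genes. Their median level was 1.13 CPM in vitro and 0.789 CPM semi in vivo, while AT4G33970 alone made up most of the sum in each sperm library. All genes below 1 CPM had a median of -0.92 with 24.45% positive. Without in vitro library 2 and semi in vivo library 3 these were -0.155 and 45.73%, over the 4977 of 5768 genes that still passed the filter. Whether the markers differ from other genes of their level was not tested. The 3 with the smallest p were MYB120, a tube transcription factor with 0.916 ± 0.52 CPM in vitro and 0.0458 ± 0.0216 CPM semi in vivo, VGD1, a pectin methylesterase with 3.95 ± 3.34 CPM in vitro and 1.61 ± 0.339 CPM semi in vivo, and the receptor kinase AT2G21480 with 1.05 ± 0.361 CPM in vitro and 0.148 ± 0.122 CPM semi in vivo (SD, n = 3). The part of vegetative RNA in these falls was not tested. The other 7 genes that fell did not have all nuclei above all sperm libraries, and for 3 of them, as for 59 of the 76 that rose, every nucleus library was below every sperm library.

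Of the 12 genes with the highest mean counts, 2 rose and 10 were not called. DAF1, an F-box protein gene of sperm, had 184139 ± 5864 CPM in vitro and 204832 ± 25187 CPM semi in vivo (SD, n = 3), a log2 fold change of 0.15 with a 95% interval of -0.14 to 0.45. CYCD7;1, a D-type cyclin of the male germline, had 33574 ± 3522 CPM in vitro and 36905 ± 5529.9 CPM semi in vivo (SD, n = 3; log2 fold change 0.14, 95% interval -0.19 to 0.46). The intervals of these genes and of AT1G34095, AT1G75870, AT4G21895 and AT5G15030 included 0 and stayed within -0.52 and 0.46. TIP5;1, a water channel of the tonoplast and mitochondria, had 10018 ± 492 CPM in vitro and 12515 ± 320.2 CPM semi in vivo (SD, n = 3; edgeR adjusted p = 0.553). AT1G80470, AT1G49290 and AT4G11543 had log2 fold changes of 0.38, 0.59 and 0.55 and were not called (edgeR adjusted p = 0.424, 0.0933 and 0.188).

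The pair that rose was AT2G45403 and DAZ3. AT2G45403, with no description, had 16593, 17444 and 13095 CPM in vitro and 29925, 24850.4 and 26078 CPM semi in vivo. AT2G45403 rose 1.72-fold (log2 fold change 0.78, SE 0.16, edgeR adjusted p = 0.0282). DAZ3, a zinc-finger gene activated by the germline regulator DUO1, had 9442, 8087 and 11912 CPM in vitro and 18704, 15524 and 15909 CPM semi in vivo. DAZ3 rose 1.703-fold (log2 fold change 0.77, SE 0.17, edgeR adjusted p = 0.0457). DAZ3 was not called without in vitro library 1 or 2 or semi in vivo library 1 or 3 (edgeR adjusted p = 0.0621 to 0.231). Its homologues DAZ1 and DAZ2 had 30.6 ± 3.78 CPM in vitro and 54.8 ± 4.81 CPM semi in vivo and 42.02 ± 17.1 CPM in vitro and 45.5 ± 10.4 CPM semi in vivo (SD, n = 3; edgeR adjusted p = 0.0995 and 0.999). DAZ3 was the only one of 16 sperm markers tested that was called. Other germline genes did not pass, among them PCR11 (7021 ± 753 CPM in vitro and 8789 ± 697 CPM semi in vivo; edgeR adjusted p = 0.615), the regulator DUO1 (59.04 ± 11.5 CPM in vitro and 53.6 ± 14.9 CPM semi in vivo), the membrane protein GEX1 (4781 ± 1334 CPM in vitro and 4609 ± 1294 CPM semi in vivo) and the fusogen HAP2 (131 ± 40.8 CPM in vitro and 114 ± 33.6 CPM semi in vivo).

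The direction of change moved with the level of a gene. Genes below 1 CPM had a median log2 fold change of -0.92, genes from 1 to 10 CPM of -0.14, from 10 to 100 CPM of 0.13, from 100 to 1000 CPM of 0.12 and genes of 1000 CPM or more of 0.16. With in vitro library 2 and semi in vivo library 3 left out, these medians were -0.16, -0.04, 0.05, 0.04 and 0.08. The share of positive values in the lowest group was 24.45% of 5768 genes with all libraries and 45.73% of 4977 genes without the pair. The latter are those of the 5768 that still passed the filter, so the gene sets differ. The medians of gene lists given above were not matched for level. In vitro, the wall, MADS-box and transcription factor lists had median levels of 1.22, 1.2 and 1.29 CPM. Of the calls, 11 that rose and 5 that fell lay between 1 and 10 CPM, and none lay below 1 CPM (0 by edgeR, against 2 higher and 130 lower by DESeq2). The scaling also moved all genes: by TMM the median log2 fold change was -0.17, by RLE -0.24 and by upper quartiles -0.29, and fold changes here are as TMM gives them. DESeq2's 312 lower calls had a median level of 0.777 CPM before TMM scaling and 153 of them were at 0 in all semi in vivo libraries, while its 209 higher calls had a median of 37.7 CPM.

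**Figure D5:**
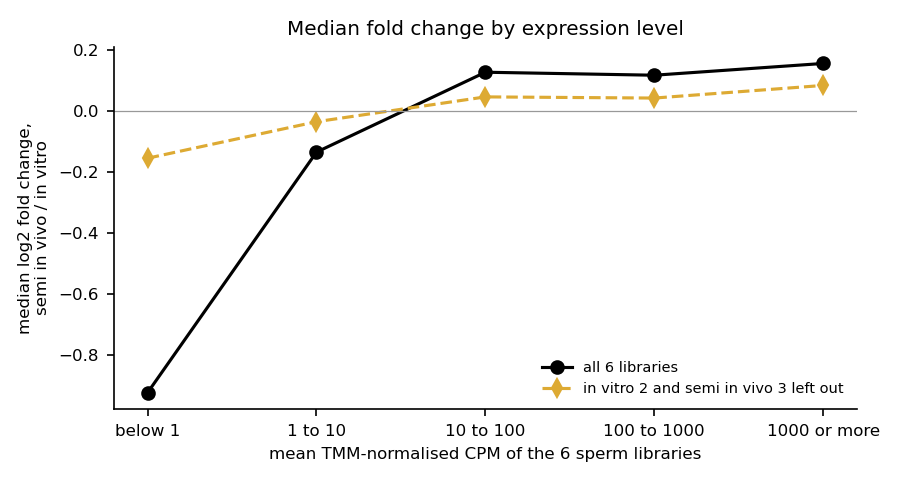
Median log2 fold change, semi in vivo over in vitro sperm, of tested genes in 5 classes of mean TMM-normalised CPM, with all 6 libraries (circles) and without in vitro library 2 and semi in vivo library 3 (diamonds). The median below 1 CPM is -0.92 with all libraries (5768 genes) and -0.16 without the pair (the 4977 of them that still passed the filter).

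Genes counted in 1 group alone were mostly in vitro genes when all libraries were used. With at least 10 counts in each library of a group and 0 in each of the other, 105 genes were in vitro only and 3 semi in vivo only. The latter were the snoRNA gene AT1G19376, the MADS-box gene AGL81 and AT3G58520. Without in vitro library 2 and semi in vivo library 3 the numbers were 166 and 201, and this alternative was chosen after the data had been seen. The rule then asks for fewer libraries, which differ in depth, so these numbers are not comparable with 105 and 3. Without in vitro library 2 alone they were 135 and 26, and without semi in vivo library 3 alone 130 and 21. After thinning to the shallowest library they were 52 and 0. The part of the pair in the excess was not tested. The counts themselves chose these genes, so their fold changes and p-values are no result; BPS3 is the member of the 105 that is among the 89 calls. Apart from BPS3 none exceeded a mean of 2.46 CPM in vitro, before TMM scaling.

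Calls by edgeR in other functional groups are given beside the shares over all genes tested, of which 0.538% rose and 0.092% fell. At these shares groups of such sizes hold few calls or none, so the counts do not set a group apart. Among 202 ribosomal protein genes tested 0 were called (11 higher and 1 lower at an unadjusted p below 0.05), and the median log2 fold change was 0.05. Of 50 cyclin and mitotic kinase genes 0 were called (5 higher and 1 lower unadjusted), of 128 heat shock and chaperone genes 0 (10 higher and 6 lower unadjusted), and of 10 transposon-related loci 0 (0 unadjusted). Among 342 membrane transporter genes NHX6 alone was called, among 175 lipid enzyme genes AT1G54790 rose and GDPD2 fell, and among 101 clathrin and vesicle traffic genes AT4G27840 rose and AT2G01920 fell. Of 83 nuclear transport and small GTPase genes RAN-1 alone was called, of 302 ubiquitin ligase genes outside the F-box family AT5G43200 alone, of 77 calcium-binding genes AT4G32060 alone, of 50 auxin genes AIR12 alone and of 88 small secreted peptide genes XYP1 alone, since RALFL18 is described as ralf-like and was not matched to that list. In the list of histones, 1 of 25 tested was called, and that was LEC1, described in the annotation as a histone superfamily protein; no histone gene proper was called. The 2 calls among 586 loci with no described function were AT3G48230 and AT2G36470, and 54 of the 89 called genes were in no list.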

How the data were processed

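RNA of sperm cells sorted by fluorescence was measured with Smart-seq2, per the labels' protocols, a PCR-based method without molecular identifiers or strand information. The authors deposited a table of raw counts per gene; per the submitters' processing notes, the tools were Trim Galore, HISAT2 and featureCounts and the build TAIR10. Versions, the strand setting and the treatment of reads with several matches were not given in the sources used here. Symbols and gene types came from the RefSeq table for TAIR10.1, in which 32548 of 32833 loci (99.13%) were found, and no coordinates or sequences are printed because the builds differ. No chloroplast and 8 mitochondrial loci passed the filter, and 3280 loci had no count in the 6 sperm libraries.

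The counts of the 6 sperm libraries were fitted in edgeR 4.0.16 under R 4.3.3: filterByExpr with a minimum count of 10, TMM factors, a robust quasi-likelihood fit, the F test, and Benjamini-Hochberg adjustment over all genes tested, with a threshold of 0.05. Standard errors were taken from the log2 fold change and the F statistic (its square root), and intervals are 95%. Values are TMM-normalised CPM, given per library in replicate order or as mean ± SD with n = 3. Nucleus values and sums over marker lists are CPM without TMM. Between libraries of 1 group, a chi-square of the counts was 25.3 to 79.2 per gene, so none is a duplicate. The procedure was tested on simulated counts.

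Alternatives were RLE and upper-quartile factors, DESeq2 1.42.0, limma 3.58.1 voom with sample weights, dropping the expression filter or asking for 5 CPM in 3 libraries, leaving out each library, in vitro library 2 and semi in vivo library 3 both left out, and a block on the replicate number. Genes counted in 1 group alone, and their alternatives, were added after seeing the data. The members and lists were chosen with earlier results of these data known. The matching rules of some lists were corrected, and the snoRNA, long noncoding RNA and gene family comparisons added, after the called genes had been seen, so counts over lists are descriptions. By the rule for named genes, every called gene is named, with values in every library for genes called in all 6 fits that leave out a library and for the 8 largest changes in each direction that reach 5 CPM in the higher group. Up to 3 members of each short list, the 12 genes with the most counts, MGH3 and ACT11 were also to be named.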

Additional observations from a re-analysis of the deposited data

How the results depend on the processing

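Calls between semi in vivo and in vitro sperm numbered 89 (76 higher, 13 lower). It was 521 (209 and 312) with DESeq2, 150 (122 and 28) without an expression filter, 165 (119 and 46) with a filter of 5 CPM in 3 libraries and 223 (177 and 46) with a replicate block. RLE factors gave 80, upper-quartile factors 75 and limma-voom 112. With each library left out in turn the count was 51 to 123, with 44 to 104 higher and 7 to 23 lower; the lowest total came without in vitro library 1. Without in vitro library 2 and semi in vivo library 3 it was 0 (0 higher, 0 lower; 1019 genes at an unadjusted p below 0.05). The cause of these differences was not tested.

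Libraries with the same replicate number did not deviate together throughout (correlations of -0.00609, 0.0643 and 0.17, and in vitro library 2 correlated best with semi in vivo library 1, at 0.188). They share only a number, so the block is given as a count alone.

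Genes with counts in all in vitro and none in semi in vivo libraries numbered 105 at a minimum of 10 counts, 218 at 5, 19 at 20 and 52 after thinning to the shallowest library, and the reverse numbered 3, 6, 0 and 0. Without in vitro library 2 these counts were 135 and 26, without semi in vivo library 3 they were 130 and 21, and without both 166 and 201. None of the 89 called genes changed sign under an alternative in which it was tested. Their groups do not overlap, so this was largely fixed in advance. With a filter of 5 CPM in 3 libraries 83 of them stayed called and 3 did not, and the others did not pass that filter. Depth limits the genes below 1 CPM: counts of 0 there cover counting error only, and PCR copies are not independent molecules.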
